A study of Mus musculus with 4 samples.

Results

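The tripartite motif (TRIM) genes were analysed in mouse macrophages grown from bone marrow. Members were all genes whose symbol starts with Trim followed by a digit, 66 of the 23259 symbols with a value. There were 2 libraries labelled Sema6D-/-, a genotype that lacks the membrane semaphorin Sema6D, and 2 labelled wild type. All 4 came from C57BL/6 mice aged 7 weeks, and all the macrophages had received IL-4, a cytokine of alternative activation, for 24 h, so no library without IL-4 enters a comparison. The comparison asks which TRIM genes differ between the labels under IL-4, and whether members known to be induced by interferon behave like the rest of the family.

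Most TRIM proteins are ubiquitin ligases. They carry a RING domain that recruits a ubiquitin-loaded enzyme, followed by B-boxes, a coiled coil and a variable C-terminal part that binds the substrate. Many are induced by type I interferon and act in antiviral defence of macrophages, either by attacking viral components or by tuning the sensors and kinases that lead to interferon and NF-κB. Other members serve transcription, muscle, nerve or germ cells and are not known as interferon-induced.

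The titles of the libraries start with W under the label Sema6D-/- and with K under the label wild type, which goes against the initials of the genotypes. Directions below follow the label, and each sign would turn if the labels were exchanged. Sema6d itself was at 0.106 and 0.315 FPKM (fragments scaled by transcript length and library size) in the Sema6D-/- libraries, against 0.166 and 0.389 in the wild type libraries. These overlapping values do not check the label (limma adjusted p = 1.0 in the fit without a filter). The estimated depth was about 8300000 and 8500000 fragments in the Sema6D-/- libraries and about 9100000 and 9200000 fragments in the wild type libraries. The macrophage markers were present in every library, 7 of 7 above 0, with summed levels of 5370 and 5380 FPKM under Sema6D-/-, against 5925 and 5646 under wild type. Of these markers Itgam and Lyz2 fell and Emr1 rose under Sema6D-/- (limma adjusted p = 0.00963, 0.017 and 0.0056). At an adjusted p under 0.05 this was 42.9% of the macrophage markers, against 9.72% of all genes tested. Whether each library is a mouse or culture of its own is not given by any label, and the spread behind the p-values may thus be technical. Wild type replicate 1 stood apart for 3 members of one gene cluster, Trim12a, Trim30d and Trim34a, which were lower there than in any other library.

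Members of the family ranged from 0 to 62.2 FPKM. Of the 66, 40 were above 0 in every library, 15 were listed at 0 in all 4, and 33 averaged 1 FPKM or more across all 4 libraries and were tested. The tested members had a median level of 7.47 FPKM, against 13 for all 10115 genes tested. FPKM is scaled by transcript length, so levels can be set side by side between genes.

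Trim25, a ligase that ubiquitinates the RNA sensor RIG-I, had the highest level under both labels, at 57.4 and 59.5 FPKM in Sema6D-/- libraries, against 58.4 and 62.2 FPKM in wild type libraries. Under the label Sema6D-/- the next levels were Trim35 (50.4 and 50.9 FPKM), Trim28 (42.4 and 40.8), Trim8 (40.8 and 39.6), Trim30a (34.4 and 38.6) and Trim14 (25.4 and 29.0). Under the label wild type Trim30a came second at 56.8 and 58.3 FPKM, followed by Trim35 (48.2 and 44.3), Trim8 (42.2 and 39.9), Trim28 (41.1 and 37.6) and Trim14 (30.5 and 34.4). Trim30a held rank 5 under Sema6D-/- and rank 2 under wild type, where its libraries lay close to those of Trim25. Trim8 and Trim28 were not separated by their libraries under wild type.

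**Figure D1:**
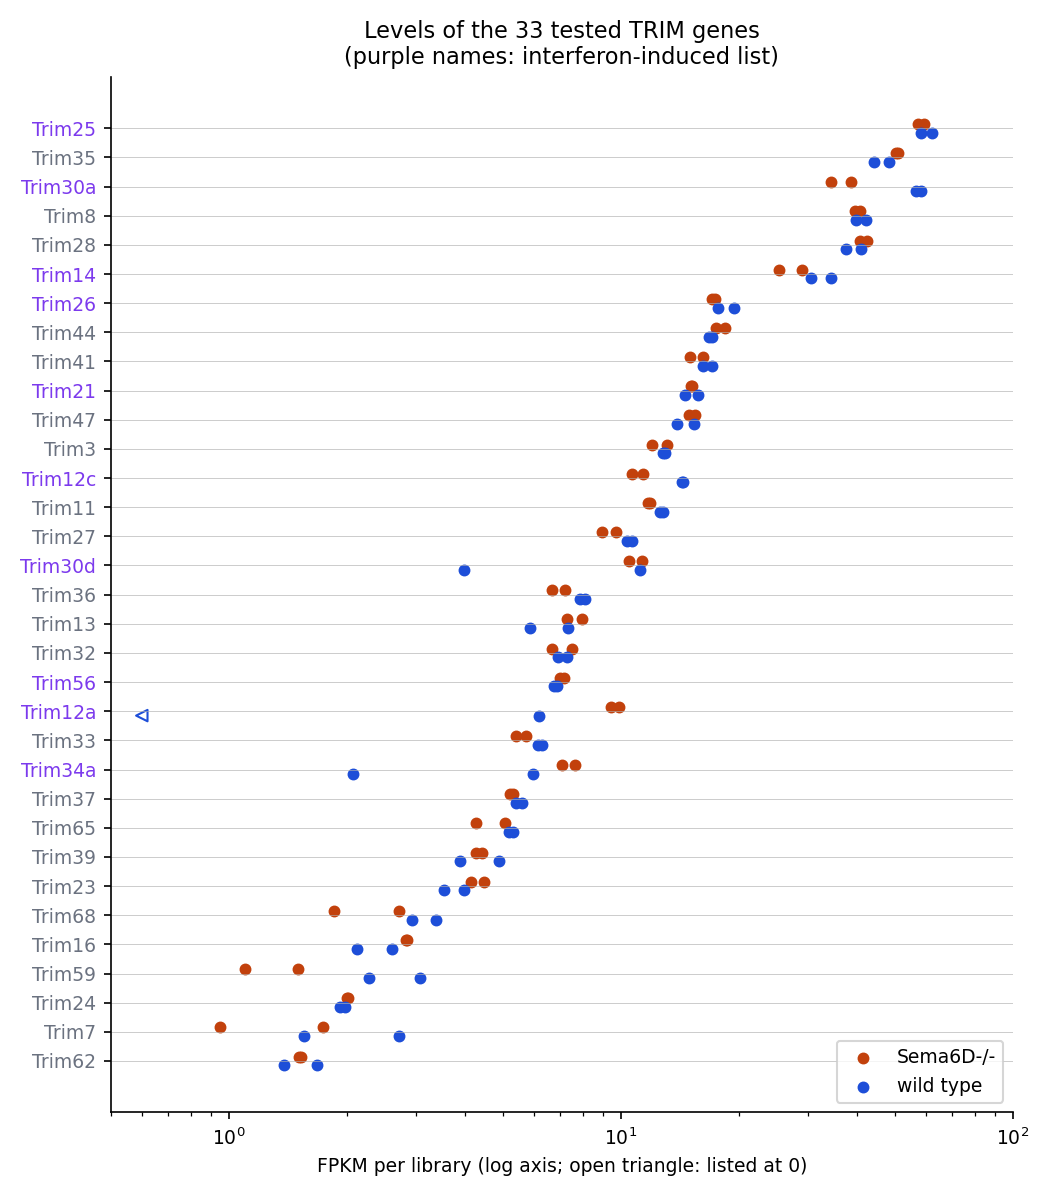
Level of each of the 33 tested TRIM genes in each library, in FPKM on a log axis, with genes ordered by mean level, Sema6D-/- libraries above wild type libraries in each row, and names of the interferon-induced list in purple. Points of both labels lie together for most genes, Trim30a is lower in both Sema6D-/- libraries, and wild type replicate 1 is at 0 (open triangle), 3.99 and 2.08 FPKM for Trim12a, Trim30d and Trim34a.

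Two-sided tests were made with limma on log2(FPKM + 1) over all 10115 genes, with p-values adjusted by the Benjamini-Hochberg method. Of the 33 tested members 2 were called lower under the label Sema6D-/- and 0 higher at an adjusted p under 0.05. The background was 9.72% of all genes called, 4.8% higher and 4.91% lower, so the family's 6.06% was no larger than the background. At an unadjusted p under 0.05 there were 4 members, 12.1% against 25.1% of all genes. The libraries of the labels did not overlap for 21 members (8 higher and 13 lower), 63.6% against 56.2% of all genes. The median difference of the members was -0.029, against 0.0029 for all genes tested. Differences were under 0.2 in size for 24 of 33 members, 72.7% against 72.4% of all genes. The 95% interval lay within 0.5 of 0 for 25 of 33, 75.8% against 76.6% of all genes. In bulk RNA, fewer cells of a type and less RNA per cell cannot be told apart.

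**Figure D2:**
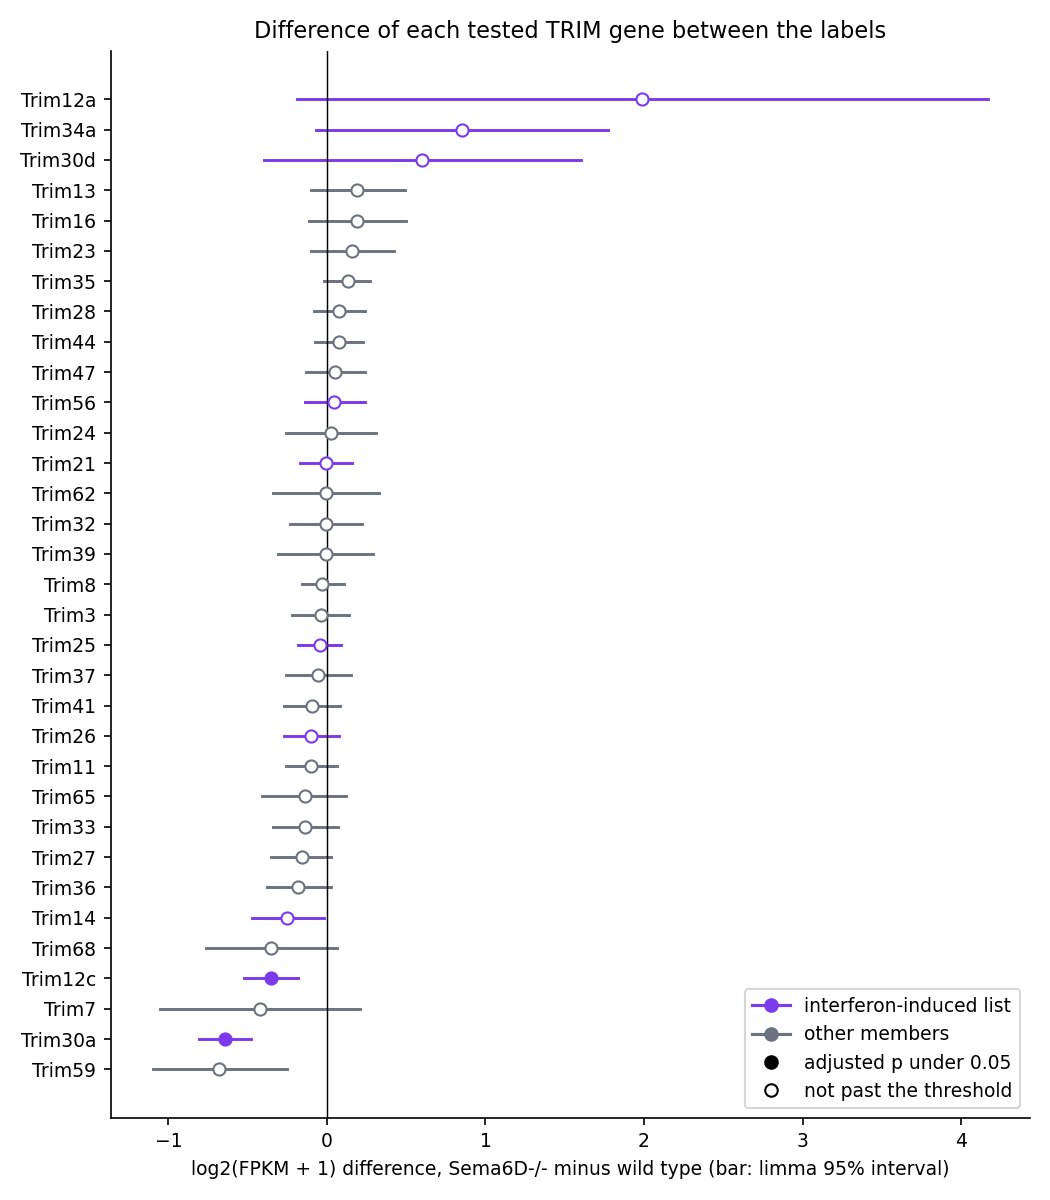
Difference of each of the 33 tested TRIM genes, Sema6D-/- minus wild type, on the log2(FPKM + 1) scale, with its 95% interval from limma. Purple marks the interferon-induced list and grey the other members, and filled points passed an adjusted p of 0.05. The filled points are Trim30a at -0.64 and Trim12c at -0.35, and the 3 widest intervals belong to Trim12a, Trim34a and Trim30d.

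The interferon-induced list held 12 members, of which 11 were in the files and 10 were tested. Of these 10, 2 were lower and 0 higher, 20% against the background of 9.72% called. The remaining 23 tested members had 0 calls in either direction by limma, with 1 at an unadjusted p under 0.05, 4.35% against 25.1%. The medians were alike, -0.024 for the interferon-induced list and -0.029 for the others. The typical size of a difference (median absolute value) was 0.30 in the list and 0.10 in the others, against 0.11 for all genes tested. Within the list it was 0.64 for the 5 tested members of one chromosome 7 cluster and 0.046 for the 5 elsewhere. This split by position was not among the planned comparisons and was not tested. Trim12a, Trim34a and Trim30d differed by 1.99, 0.85 and 0.60 with all libraries, and by 0.57, 0.26 and -0.045 without wild type replicate 1. The difference between the list and the other members was not tested. Trim6, Trim30b, Trim31, Trim38 and Trim69, which are induced by interferon in some settings or lie beside induced members, were all under 1 FPKM and were not tested at this filter.

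Trim30a, a mouse ligase that restrains NF-κB by promoting loss of the adaptor proteins TAB2 and TAB3, fell in the libraries labelled Sema6D-/-. It had 34.4 and 38.6 FPKM in Sema6D-/- libraries, against 56.8 and 58.3 FPKM in wild type libraries. The libraries do not overlap, and the values rest on about 1175 and 1348 fragments in Sema6D-/- libraries, against about 2126 and 2204 in wild type libraries. The wild type mean was 1.58 times the Sema6D-/- mean, and the difference was -0.64 ± 0.07 (SE; 95% interval -0.81 to -0.48; limma adjusted p = 0.00722). The call ended without Sema6D-/- replicate 1, where the difference was -0.56 (limma adjusted p = 0.0509), and without the filter on low values (limma adjusted p = 0.165). It held when any other single library was left out, with limma adjusted p-values of 0.0253 to 0.0281.

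Trim12c, a mouse relative of the retroviral restriction factor TRIM5 of primates, was also lower. It had 11.4 and 10.7 FPKM in Sema6D-/- libraries, against 14.3 and 14.4 FPKM in wild type libraries, again without overlap. The difference was -0.35 ± 0.07 (SE; limma adjusted p = 0.0342). The call ended when any 1 library was left out, with limma adjusted p-values of 0.115 to 0.188 and differences of -0.39 to -0.31. It also ended without the filter (0.156) and with eBayes without trend (0.0559). Of the 50-base stretches in its annotated transcripts 33% also occur in transcripts of another gene on the same strand, with Trim5 sharing most of them (24.2%), so its level is uncertain.

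Markers of other cells moved between the same libraries. Neutrophil markers were higher for 6 of the 8 that were tested, 75% against the background of 4.8% higher. Their summed levels were 752 and 613 FPKM under Sema6D-/-, against 204 and 192 FPKM under wild type, and none of the 8 was at 0. Dendritic cell markers summed to 306 and 321 FPKM under Sema6D-/- and to 404 and 410 FPKM under wild type. The sums consist almost wholly of Itgax, an integrin gene that macrophages share and that fell (limma adjusted p = 0.011). Zbtb46 was lower in both Sema6D-/- libraries, at 0.251 and 0.367 FPKM against 0.696 and 0.913 FPKM under wild type. So was Xcr1, at 0.0777 and 0.075 FPKM against 0.355 and 0.417 FPKM. Neither was called in the fit without a filter (limma adjusted p = 0.293 and 0.116). Ccr7 overlapped between the labels, Siglech was at or under 0.1 FPKM, and Flt3 was at 0 in 3 libraries. Fibroblast markers summed to 2.73 and 2.0 FPKM under Sema6D-/- and to 1.89 and 3.69 FPKM under wild type. Lymphocyte markers summed to 0.421 FPKM or less in every library, with Ncr1 at 0. The part of these cells in the differences of Trim30a and Trim12c was not tested.

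Both genes lie in a cluster of TRIM genes on chromosome 7, in mm10 from Trim6 (104218795 to 104235152) through Trim34a, Trim12a, Trim34b, Trim12c, Trim30b and Trim30a to Trim30d (104470014 to 104507853). Trim30a spans 104409025 to 104465193 and Trim12c spans 104338754 to 104353358. Trim5 and Trim30c, annotated in the same cluster, were not analysed here.

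Promoter windows of the interferon-induced members are shown since they bear on what these genes share in sequence. The motif searched on both strands was GAAA, any 2 bases and GAAA, the core of the interferon-stimulated response element, in the RefSeq windows of GRCm38.p6 that run from 250 bases before to 50 after each start. It occurred in 3.44% of all 32851 windows and in at least 1 window of 3.99% of the 27025 genes, and 50 of the 66 members had a window. Of the 10 interferon-induced members with a window 7 held the motif, as did 1 of the 40 other members with one, Trim2. Each line gives a stretch of the window around the motif, 5′ to 3′ on the gene's strand, with the motif in capitals (overlapping matches are joined).
Trim30a, chr7:104465195-104465254, minus strand: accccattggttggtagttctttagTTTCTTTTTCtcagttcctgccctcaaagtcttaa
Trim30d, chr7:104507856-104507915, minus strand: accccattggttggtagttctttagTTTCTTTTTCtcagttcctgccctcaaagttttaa
Trim12c, chr7:104353344-104353403, minus strand: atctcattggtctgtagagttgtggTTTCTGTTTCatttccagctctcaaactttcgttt
Trim12a, chr7:104315451-104315510, minus strand: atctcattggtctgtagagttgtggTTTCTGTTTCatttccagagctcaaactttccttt
Trim34a, chr7:104244442-104244501, plus strand: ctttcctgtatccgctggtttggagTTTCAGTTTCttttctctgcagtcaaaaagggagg
Trim21, chr7:102565433-102565494, minus strand: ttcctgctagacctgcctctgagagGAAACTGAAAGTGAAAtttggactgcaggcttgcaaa
Trim26, chr17:36836961-36837026, plus strand: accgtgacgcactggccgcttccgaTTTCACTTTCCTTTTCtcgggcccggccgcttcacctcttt
The stretches of Trim30a and Trim30d differ at 1 of 60 bases, and those of Trim12c and Trim12a at 3 of 60. These positions and stretches are those of the outermost start of Trim30a, and the window of a second annotated start, with the motif at base 3, is not shown. With the start counted as base 1, the motif began at base -36 for Trim30a, -41 for Trim30d, -29 for Trim12c and 11 for Trim12a and Trim34a. Trim25, Trim34b and Trim56 had a window without these letters. A match is a stretch of letters and no evidence of binding.

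Genes with near-identical stretches did not show the same values. Trim30d had 10.5 and 11.3 FPKM in Sema6D-/- libraries, against 3.99 and 11.2 FPKM in wild type libraries. Wild type replicate 1 alone was low, and without it the difference was -0.045 (limma adjusted p = 0.839), against 0.60 with it (limma adjusted p = 0.419). Without wild type replicate 2 it was 1.25 (limma adjusted p = 0.00927). Trim30a and Trim30d share about 6% of their 50-base stretches (5.98% of those of Trim30a and 6.39% of those of Trim30d), so most of each transcript can be told from the other. Summed over Trim30a, Trim30b and Trim30d, the level was 45.03 and 49.95 FPKM under Sema6D-/-, against 60.87 and 69.51 FPKM under wild type, a difference of -0.45 (limma adjusted p = 0.0343; a sum chosen after the values were seen).

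Trim12a had 9.44 and 9.91 FPKM in Sema6D-/- libraries, and was listed at 0 in wild type replicate 1 and at 6.20 FPKM in replicate 2. A value listed at 0 may stand for an estimate that failed, so no fold is given, and its fitted difference did not pass (limma adjusted p = 0.234). Without wild type replicate 2, leaving the library at 0, it did (limma adjusted p = 0.00101), and without replicate 1 the difference was 0.57 (limma adjusted p = 0.0522). Trim12a and Trim12c thus stood in opposite order between the labels. Their sum was 20.8 and 20.7 FPKM under Sema6D-/-, against 14.3 and 20.6 FPKM under wild type (difference 0.26, limma adjusted p = 0.391; chosen after the values were seen). The sum has the opposite sign to Trim12c alone.

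Trim34a and Trim34b, a pair of near copies related to the interferon-induced human TRIM34, also stood in opposite order between the labels. Trim34a had 7.65 and 7.07 FPKM in Sema6D-/- libraries, against 2.08 and 5.97 FPKM in wild type libraries (difference 0.85 ± 0.37 SE, limma adjusted p = 0.231; 1.44 and 0.00881 without wild type replicate 2). Trim34b had 0.0829 and 0.08 FPKM in Sema6D-/- libraries, against 2.2 and 1.56 FPKM in wild type libraries, about 1 fragment in each Sema6D-/- library and about 37 and 26 in wild type libraries. Its mean lay under 1 FPKM, and in the fit without a filter it did not pass (difference -1.40 ± 0.14 SE, limma adjusted p = 0.152). In that fit the difference was -1.24 without wild type replicate 1 and -1.56 without wild type replicate 2. It was -1.40 without either Sema6D-/- library. With 1 wild type library left, the gene's own spread comes only from the Sema6D-/- libraries, at about 1 fragment each. Trim34b shares 56.8% of its 50-base stretches with Trim34a, so how reads were divided between them is uncertain. Their sum, 7.73 and 7.15 FPKM under Sema6D-/-, against 4.28 and 7.52 FPKM under wild type, overlapped between the labels (limma adjusted p = 0.431; chosen after the values were seen).

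Over the 8 cluster members listed, the sum was 74.0 and 78.2 FPKM in Sema6D-/- libraries, against 79.8 and 98.0 FPKM in wild type libraries. The libraries do not overlap, but the difference of -0.21 did not pass (95% interval -0.47 to 0.04; limma adjusted p = 0.266). Trim6 and Trim30b were at or under 0.425 FPKM in every library.

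**Figure D3:**
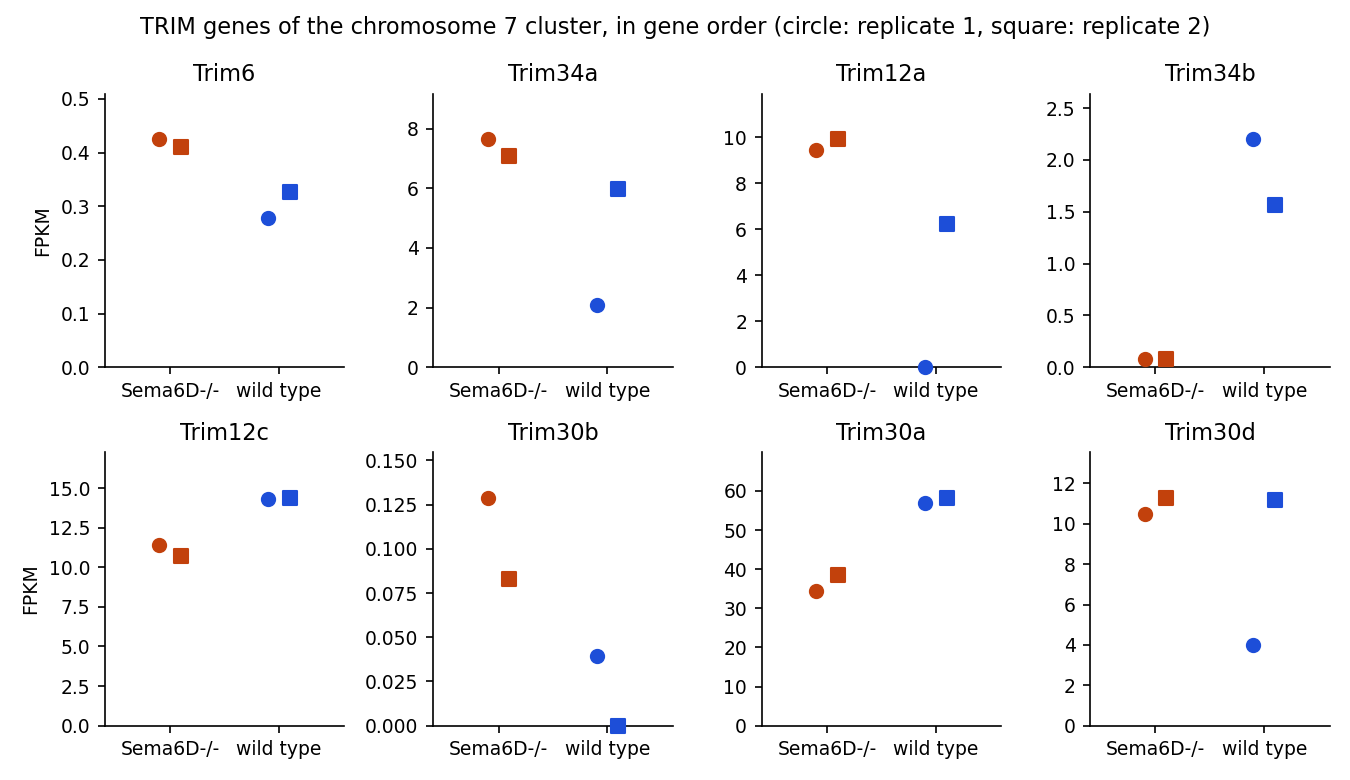
FPKM of the 8 TRIM genes of the chromosome 7 cluster in gene order, on a linear axis from 0 that differs between panels, with Sema6D-/- libraries left of wild type libraries (circle, replicate 1; square, replicate 2). Trim30a, Trim12c and Trim34b are lower in both Sema6D-/- libraries, and wild type replicate 1 is the lowest of 4 for Trim12a, Trim34a and Trim30d.

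Interferon-induced members outside the cluster had no call. With 5 tested, this cannot be told from the background of 9.72% called. Trim14, which lacks a RING and serves as an adaptor of antiviral signalling at mitochondria, had 25.4 and 29.0 FPKM in Sema6D-/- libraries, against 30.5 and 34.4 FPKM in wild type libraries. Its libraries do not overlap, and the difference of -0.25 ± 0.09 (SE) did not pass (limma adjusted p = 0.17). Its annotated exons share 1356 bases with Nans on the opposite strand, and the strand setting of the quantification is not given in the sources used here. Trim25 differed by -0.045 (95% interval -0.18 to 0.09, limma adjusted p = 0.663).

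Trim21, a cytosolic receptor for antibody-coated viruses, had 15.1 and 15.2 FPKM in Sema6D-/- libraries, against 14.6 and 15.7 FPKM in wild type libraries (95% interval of the difference -0.17 to 0.16, limma adjusted p = 0.984). Trim26, encoded in the major histocompatibility region of chromosome 17, had 17.4 and 17.1 FPKM in Sema6D-/- libraries, against 17.7 and 19.4 FPKM in wild type libraries (95% interval -0.27 to 0.076, limma adjusted p = 0.445). Trim56, a ligase reported to act in nucleic acid sensing in human cells, had 6.99 and 7.18 FPKM in Sema6D-/- libraries, against 6.89 and 6.77 FPKM in wild type libraries (95% interval -0.14 to 0.24, limma adjusted p = 0.754). For Trim25, Trim21, Trim26 and Trim56 the 95% intervals reach no lower than -0.27, which is smaller in size than the difference of Trim30a.

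Transcriptional members of the TIF1 group, which carry a bromodomain, were close between the labels. Trim28, the co-repressor that KRAB zinc finger proteins recruit to silence retroelements, had 42.4 and 40.8 FPKM in Sema6D-/- libraries, against 41.1 and 37.6 FPKM in wild type libraries (difference 0.079, 95% interval -0.079 to 0.24, limma adjusted p = 0.501). Trim33 had 5.72 and 5.40 FPKM in Sema6D-/- libraries, against 6.15 and 6.28 FPKM in wild type libraries (limma adjusted p = 0.377), and Trim24 had 2.01 and 2.0 FPKM in Sema6D-/- libraries, against 1.92 and 1.98 FPKM in wild type libraries (limma adjusted p = 0.909). Trim66 was at or under 0.0676 FPKM in every library.

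The other abundant members were Trim35, Trim8, Trim44, Trim41, Trim47, Trim3 and Trim11, and none passed. With so few members this cannot be told from the background of 9.72% called. Trim35, described in mouse macrophages as a protein that promotes apoptosis, had 50.4 and 50.9 FPKM in Sema6D-/- libraries, against 48.2 and 44.3 FPKM in wild type libraries (difference 0.13, 95% interval -0.018 to 0.27, limma adjusted p = 0.25). Trim8, a regulator of cytokine signalling that binds SOCS1, had 40.8 and 39.6 FPKM in Sema6D-/- libraries, against 42.2 and 39.9 FPKM in wild type libraries (95% interval -0.16 to 0.11, limma adjusted p = 0.788). Trim44, Trim41, Trim47, Trim3 and Trim11 lay between 11.7 and 18.4 FPKM in all 4 libraries, with differences of -0.10 to 0.08.

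Among the remaining members Trim59, a ligase anchored in the endoplasmic reticulum, came closest to a call. It had 1.5 and 1.1 FPKM in Sema6D-/- libraries, against 3.08 and 2.28 FPKM in wild type libraries, about 42 and 31 fragments in Sema6D-/- libraries, against 94 and 70 in wild type libraries. The difference of -0.68 ± 0.17 (SE) did not pass (limma adjusted p = 0.0709), although it did with robust variance estimation (limma adjusted p = 0.046). The 3 markers of dividing cells summed to 3.94 and 3.75 FPKM in the same Sema6D-/- libraries, against 6.27 and 6.77 FPKM in the wild type libraries, and the proliferation marker Mki67 fell to 1.06 and 1.0 FPKM in Sema6D-/- libraries, against 2.23 and 2.25 FPKM in wild type libraries (limma adjusted p = 0.0307). Whether dividing cells bear on Trim59 was not tested.

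By structure, calls were also 0 in either direction by limma. With 1 to 4 tested members per group, 0 calls cannot be told from the background of 9.72% called. The group with NHL or filamin repeats, which includes the RNA-binding Trim71, had 2 of 5 members tested. The microtubule-binding COS-box group had 1 of 7 tested, Trim36, at 6.69 and 7.22 FPKM in Sema6D-/- libraries, against 7.86 and 8.11 FPKM in wild type libraries (limma adjusted p = 0.249). All 4 members with a transmembrane, ARF or MATH domain were tested, with 1 at an unadjusted p under 0.05 (Trim59, 25%). Of the 5 without a RING 3 were tested, again with 1 (Trim14, 33.3%). The background was 25.1% of all genes.

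Among the members listed at 0 or near it, named after their values were seen, were some known from other tissues. The muscle ligases Trim54, Trim55 and Trim63 were listed at 0 in all 4 libraries, as were Trim71 of early embryos, Trim58 of red cell precursors and Trim67, found in nerve cells. Trim9, a neuronal member, was at or under 0.05 FPKM, and Trim72, a membrane repair protein of muscle, at or under 0.0486. In total 18 members were above 0 in some library with a mean under 1 FPKM, where values rest on few fragments. In the limma fit without a filter 0 of them passed. Over all 23259 genes that fit called 115 higher and 99 lower, so 0 of 18 is no result about these members. In it 3 had an unadjusted p under 0.05 (Trim6, Trim29 and Trim34b), and the share of all genes under it was not counted.

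TRIM proteins that carry another symbol and the genes that work with the family were set beside the members. Of the 5 such TRIM proteins 4 were tested, and 2 fell, 50% against the background of 4.91% lower. Pml, the organiser of nuclear bodies, had 14.4 and 16.5 FPKM in Sema6D-/- libraries, against 20.6 and 20.5 FPKM in wild type libraries (difference -0.39 ± 0.08 SE, limma adjusted p = 0.0407). Mid1, a microtubule-bound ligase, had 0.321 and 0.676 FPKM in Sema6D-/- libraries, against 2.43 and 1.64 FPKM in wild type libraries (difference -1.01 ± 0.20 SE, limma adjusted p = 0.0405). Mefv, the inflammasome protein pyrin, had 3.12 FPKM in both Sema6D-/- libraries, against 4.05 and 4.71 FPKM in wild type libraries, and did not pass (limma adjusted p = 0.0961). Neither Pml nor Mid1 kept its call when any 1 library was left out, without the filter, after quantile normalization (limma adjusted p = 0.0506 for Pml and 0.0523 for Mid1) or with eBayes without trend (0.0789 and 0.0561). Mid1 also lost it with a pseudocount of 0.1 (limma adjusted p = 0.0508).

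Genes of the interferon response were called more often than the background of 9.72%, although the difference from the TRIM members was not tested. Of 13 genes of the interferon signal chain 9 were lower (69.2%) and 0 higher, with a median difference of -0.68. Isg15, the ubiquitin-like protein that interferon induces, averaged 48.0 ± 6.87 FPKM in Sema6D-/- libraries and 106 ± 1.71 FPKM in wild type libraries (SD, n = 2 each; limma adjusted p = 0.00438), and its protease gene Usp18 averaged 13.7 ± 2.19 FPKM in Sema6D-/- libraries and 42.0 ± 1.71 in wild type libraries (limma adjusted p = 0.00246). Among 11 tested antiviral sensing genes 6 were lower (54.5%) and 0 higher. Ddx58, which encodes the Trim25 substrate RIG-I, had 14.8 and 16.3 FPKM in Sema6D-/- libraries, against 26.4 and 27.9 FPKM in wild type libraries (difference -0.77 ± 0.071 SE, limma adjusted p = 0.00513), while Trim25 itself had no call. Without the filter 0 genes of either list were called by limma. Leaving out 1 library gave 4 to 8 lower genes in the signal chain and 3 to 5 among the sensing genes, the fewest without Sema6D-/- replicate 1 for the chain and without that library or wild type replicate 1 for the sensors.

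Enzymes that load ubiquitin or ISG15 went in both directions. Of 11 tested, 3 were lower and 1 higher, 36.4% called against the background of 9.72%. Those of the ISG15 pathway were Uba7, its activating enzyme (26 and 28.1 FPKM in Sema6D-/- libraries, against 41.6 and 37.0 in wild type libraries, limma adjusted p = 0.0174), the conjugating enzyme Ube2l6 (49.1 and 53.2 FPKM in Sema6D-/- libraries, against 65.1 and 61.5 in wild type libraries, limma adjusted p = 0.041) and the ligase Herc6 (7.92 and 8.77 FPKM in Sema6D-/- libraries, against 12.3 and 13.5 in wild type libraries, limma adjusted p = 0.0181), all lower. Ube2l3, a conjugating enzyme of ubiquitin, was higher (74.6 and 71.6 FPKM in Sema6D-/- libraries, against 60.7 and 56.6 in wild type libraries, limma adjusted p = 0.0295). Without Sema6D-/- replicate 1 or 2 none of the 3 lower enzymes was called by limma, and Ube2l3 was called only without wild type replicate 1. Of 7 co-repressor partners of Trim28 1 was called, 14.3% against the background of 9.72%. Hdac1 was higher (4.87 and 6.86 FPKM in Sema6D-/- libraries, against 1.48 and 1.73 in wild type libraries, limma adjusted p = 0.0103) and the other 6 had no call.

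**Figure D4:**
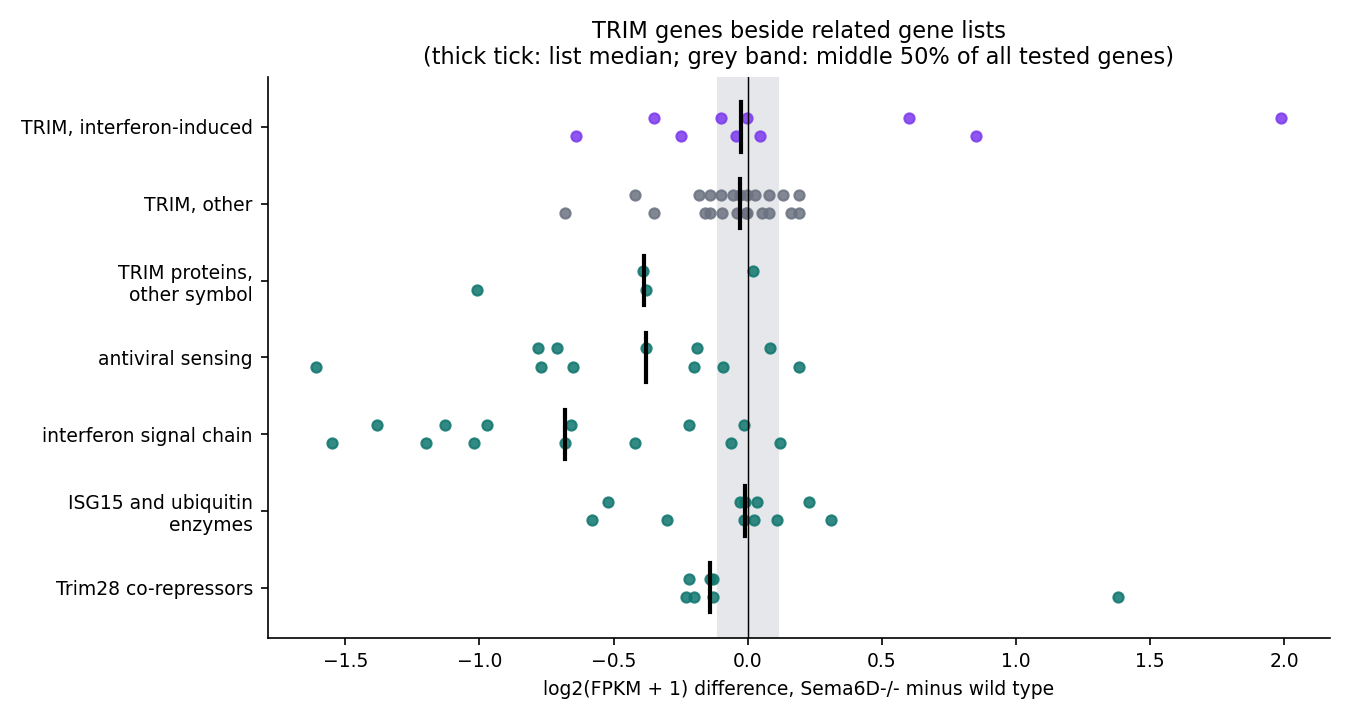
Difference of each tested gene, Sema6D-/- minus wild type on the log2(FPKM + 1) scale, for both sets of TRIM members and 5 related lists, with thick ticks at list medians and a grey band over the middle 50% of all tested genes. Medians are -0.024 and -0.029 for the TRIM sets, inside the band, and -0.68 for the interferon signal chain, outside it.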

How the data were processed

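RNA was measured in 4 libraries, 2 per genotype label. The unit of the deposited values, FPKM, was read from the values and from Cuffnorm 2.2.1 in the submitters' processing notes, which also list mm10 with SAMtools 0.1.19, Bowtie2 2.2.3 and TopHat2 2.0.13. The library kit is strand-specific, per the labels' protocols. Annotation, strand setting and treatment of reads with several matches were not stated in the sources used here.

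Depth was estimated here from the steps of low values. The main test was limma 3.58.1 (R 4.3.3) on log2(FPKM + 1) with a trended variance, for genes averaging 1 FPKM or more, and the code was checked on simulated data. This scale understates differences of low genes. Shared 50-base stretches come from GENCODE transcripts of GRCm38, positions from RefSeq. Of 23284 symbols 25 held no value.

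Members, lists and tests were chosen with earlier results of these data known. Named members were those called, the interferon-induced ones above 0, the 8 most abundant others, the TIF1 group and the 3 uncalled with the smallest adjusted p. Each related list has up to 3 genes named by smallest p. Trim2, Trim9, Trim29, Trim36, Trim72, the members listed at 0, Ube2l6 and the marker genes were named after their values were seen, and one marker is not reported here. Alternatives covered pseudocount, filter, scaling, variance model, replicate block, list membership and leaving out each library.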

Additional observations from a re-analysis of the deposited data

How the results depend on the processing

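By limma, calls over all genes numbered 115 (higher) and 99 (lower) when no filter was used, and 261 and 327 with eBayes without trend. They were 72 to 276 higher and 87 to 290 lower when 1 library was left out. The 2 lower TRIM members, both interferon-induced, became 0 without a filter and 1 (Trim30a) with eBayes without trend. When 1 library was left out there were 0 to 1 lower and 0 to 3 higher, the 3 being Trim12a, Trim30d and Trim34a without wild type replicate 2. Robust estimation gave 1 lower member outside the interferon-induced list, Trim59. The median of the interferon-induced list ranged from -0.071 to 0.017 when 1 library was left out. The longer list could change no count, since none of its added members passed the filter. The cause of these shifts was not tested, although leaving out libraries itself weakens the test. A label with 1 library left has no spread of its own. The p-values of such fits, also those of single members above, do not measure the spread within that label.

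Same-numbered libraries did not deviate together (correlation of deviations over genes -0.018). With the replicate number as a block, 300 genes were higher, 337 were lower and 1 TRIM member, in the interferon-induced list, was lower, Trim30a, while Trim12c, Pml and Mid1 had limma adjusted p-values of 0.0698, 0.0634 and 0.0818.

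Some members changed sign when 1 library was left out: Trim21 ranged from -0.052 (without wild type replicate 1) to 0.045, with 0.00087 without Sema6D-/- replicate 1, Trim30d from -0.045 to 1.25 and Trim69 from -0.2 to 0.049. Trim8 ranged from -0.068 to 0.011, Trim47 from -0.017 to 0.12, Trim3 from -0.1 to 0.022 and Trim66 from -0.0096 to 0.069. Trim38, with values above 0 in 1 library alone, ranged from 0 to 0.13. The value 0.13 came without Sema6D-/- replicate 2, where both wild type libraries were at 0 and gave the gene no spread of its own. Trim21 was at 0.0075 after quantile normalization. Summed with near copies, an alternative chosen after seeing the data, Trim12c gave 0.26, Trim34b 0.33 and Trim30d -0.45. Of 343 alternative values of the 27 named members 315 kept their direction and their side of the threshold. Most of these members had no call to lose. The 9 values that kept their direction but lost a call were all of Trim30a and Trim12c. Genes near 1 FPKM rest on few fragments, since 1 fragment on 1 kb is worth 0.109 to 0.12 FPKM.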
